A study of Mus musculus with 16 samples.

Results

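The genes described here encode the core of the RAS to ERK signalling cascade, and they were chosen by name: Hras, Nras, Araf, Braf, Map2k1, Map2k2 and Mapk3. All 7 were present among the 16383 genes of the deposited table, and all 7 passed the filter that left 12907 genes for testing. They were measured by sequencing of polyA RNA from undifferentiated spermatogonia, the mitotic germ cells that include the stem cells of the testis, sorted from mice; the word undifferentiated comes from the library names. Every mouse had received busulfan, an alkylating agent toxic to germ cells, at 10 mg/kg, and cells were taken 10 days later. The 4 groups of 4 libraries were Spry4 germline knockout with PD0325901 (KO_PD), Spry4 germline knockout with vehicle (KO_vehicle), wild type with PD0325901 (WT_PD) and wild type with vehicle (WT_vehicle). PD0325901 was injected daily at 2.5 mg/kg, starting on day 3 after busulfan and going on for 7 days, and the vehicle was 10% DMSO in PBS. The library names give the wild type as Spry4ff and the knockout as GCRT_Spry4KO, so whatever else the prefix stands for is confounded with knockout and the effects cannot be told apart. The labels give no age of the mice, no markers for the sort and no statement that replicates were separate animals, and p-values therefore measure the spread between these libraries.

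Receptor tyrosine kinases at the cell surface load RAS proteins with GTP, RAS recruits a RAF kinase to the membrane, RAF phosphorylates the MEK kinases, and MEK phosphorylates ERK. In undifferentiated spermatogonia this cascade is known to carry the signal of GDNF and FGF, which maintain the stem cells. Hras and Nras encode RAS GTPases, Araf and Braf encode RAF kinases, Map2k1 and Map2k2 encode MEK1 and MEK2, and Mapk3 encodes ERK1. PD0325901 blocks the activity of MEK1 and MEK2, and Sprouty proteins such as SPRY4 restrain signalling from receptors to ERK. Activity in this cascade is set by GTP loading and phosphorylation, and the values here are transcript levels only. The 7 are not all genes of these tiers, so no share of a whole tier is given.

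Transcripts listed as markers of undifferentiated and of differentiating spermatogonia were present. Whether differentiating cells were among those sorted was not tested. Zbtb16, a transcription factor of undifferentiated spermatogonia, lay between 85.6 and 125 FPKM (fragments per kilobase of exon, scaled to sequencing depth) in all 16 libraries, and Kit, a receptor of differentiating spermatogonia, between 1.46 and 4.50 FPKM. The means of the 16 listed markers of the undifferentiated state ran from 3.36 FPKM for Utf1 to 128 FPKM for Dazl, and those of the 6 listed markers of differentiation from 0.582 FPKM for Prdm9 to 53.8 FPKM for Ccnd2, with Stra8 at 24.3 FPKM. Spry4 itself averaged 11.01 ± 3.13 FPKM in KO_vehicle and 22.1 ± 1.66 FPKM in WT_vehicle (SD, n = 4 each), and 12.9 ± 4.71 FPKM in KO_PD and 21.5 ± 4.89 FPKM in WT_PD. The labels do not say which exons were deleted, and reads of Spry4 remained in every knockout library. Contractile cell transcripts differed widely between libraries: Acta2, smooth muscle actin, ran from 367 to 5095 FPKM. Library KO_vehicle 3 stood apart in spermatid transcripts, with a summed level of 3049 FPKM over 10 marker genes, and results were computed with and without each library.

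All members were measured at a depth that leaves little counting error. The reads behind each value were recovered from the FPKM steps, and every member had between 1015 and 4835 reads in every library. Counting error alone was 1.79% to 2.81% of the level, while the coefficient of variation within a group of 4 was 2.75% to 20.8%, above the counting error in 28 of 28 cases.

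The promoters of 4 members are shown: Map2k1 and Map2k2 because their products are the targets of the inhibitor, and Hras with its paralog Nras because Hras and Map2k2 varied together across libraries. Each run is the 250 bases before the start of the RefSeq gene (build GRCm38.p6), 5′ to 3′ on the gene's strand: Hras at chr7:141194005-141194254 (minus strand), Nras at chr3:103058035-103058284 (plus), Map2k1 at chr9:64253606-64253855 (minus) and Map2k2 at chr10:81105665-81105914 (plus). Capitals mark GGGCGG (a GC box) or CCGGAA (the core of ETS family sites) on either strand.
Hras: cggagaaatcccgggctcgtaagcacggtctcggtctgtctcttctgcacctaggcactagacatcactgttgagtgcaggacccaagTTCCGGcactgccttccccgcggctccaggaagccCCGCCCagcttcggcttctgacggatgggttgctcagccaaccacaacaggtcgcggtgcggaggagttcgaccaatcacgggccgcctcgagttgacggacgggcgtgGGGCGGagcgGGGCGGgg
Nras: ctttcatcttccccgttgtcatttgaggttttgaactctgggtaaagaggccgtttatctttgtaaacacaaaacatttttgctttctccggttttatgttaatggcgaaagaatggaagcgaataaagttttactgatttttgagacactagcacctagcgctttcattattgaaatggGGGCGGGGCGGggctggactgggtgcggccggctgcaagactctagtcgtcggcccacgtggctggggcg
Map2k1: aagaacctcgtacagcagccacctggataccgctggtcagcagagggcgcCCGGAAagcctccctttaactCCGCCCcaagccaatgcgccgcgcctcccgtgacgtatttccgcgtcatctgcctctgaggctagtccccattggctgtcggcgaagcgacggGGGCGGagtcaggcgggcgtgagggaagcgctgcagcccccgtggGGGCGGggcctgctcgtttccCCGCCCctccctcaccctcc
Map2k2: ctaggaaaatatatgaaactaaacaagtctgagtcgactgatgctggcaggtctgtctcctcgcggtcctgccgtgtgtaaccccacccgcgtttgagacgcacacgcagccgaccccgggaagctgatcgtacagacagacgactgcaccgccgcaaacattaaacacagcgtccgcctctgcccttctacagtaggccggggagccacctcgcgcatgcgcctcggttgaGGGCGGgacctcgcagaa
Hras held 3 GC boxes, Nras 2 that overlap, Map2k1 4 and Map2k2 1, and a match to the ETS core stood in the windows of Hras and Map2k1 and not in those of Nras and Map2k2. Of the RAF genes, whose windows are not printed, Araf held no GC box and 1 ETS core, and Braf 1 GC box and no ETS core. Of 32851 promoter windows of this length in the table, 32.7% held a GC box and 12.03% an ETS core. RefSeq windows were found for 6 of the 7 members. A match is a string of letters and shows no binding.

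The order of the members by mean level over the 16 libraries ran from Mapk3 to Braf. Mapk3 averaged 42.4 ± 4.62 FPKM (SD, n = 16), above 92.9% of the genes tested, and Map2k1 averaged 26.5 ± 1.35 FPKM. Map2k2 stood at 17.9 ± 2.38 FPKM, Nras at 15.4 ± 1.82 FPKM, Hras at 12.5 ± 1.15 FPKM and Araf at 10.3 ± 1.37 FPKM. Braf was the lowest at 4.80 ± 0.744 FPKM, under the median of 7.88 FPKM of all tested genes. Cells in these fractions thus carried transcripts of both RAS genes, both RAF genes and both MEK genes, with the ERK1 gene highest per kilobase.

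Each neighbouring pair in that order was tested within libraries (exact sign-flip permutation test over 16 libraries, two-sided, adjusted over 6 pairs), and each mean ratio passed the threshold. The order came from the means of these same 16 libraries, so the pairs and their directions were not set before the data were seen. Mapk3 was 1.60-fold Map2k1, Map2k1 was 1.49-fold Map2k2 and Araf was 2.14-fold Braf, each in 16 of 16 libraries (exact permutation p = 3.05e-05, the smallest possible, adjusted 6.1e-05). The steps from Map2k2 to Nras (1.16-fold, 13 of 16 libraries, exact permutation adjusted p = 0.0115) and from Nras to Hras (1.23-fold, 13 of 16 libraries, exact permutation adjusted p = 0.00114) were turned round in 3 libraries each. For Map2k2 over Nras the mean log2 ratio of 0.22 was smaller than its SD of 0.30 over the libraries. That step was absent in the lower library numbers (sets described below), where Map2k2 averaged 15.93 and Nras 15.97 FPKM. In the higher numbers they averaged 19.9 and 14.8 FPKM. The 3 libraries with Hras above Nras all had higher numbers. The test took the 16 libraries as 1 set, so its p-values do not reflect this split. Hras over Araf was 1.22-fold in 15 of 16 libraries (exact permutation adjusted p = 0.000137). FPKM divides by all annotated exon bases, which come to 13862 for Braf and 2257 for Mapk3 in GENCODE M21, so exons that these cells do not use lower the value of a gene. Exons of Braf overlap those of Ndufb2 on the other strand, and exons of Araf those of Syn1, and the labels do not say whether the count used the strand. Nras has an annotated pseudogene, and how reads shared with it were counted was not stated.

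**Figure D1:**
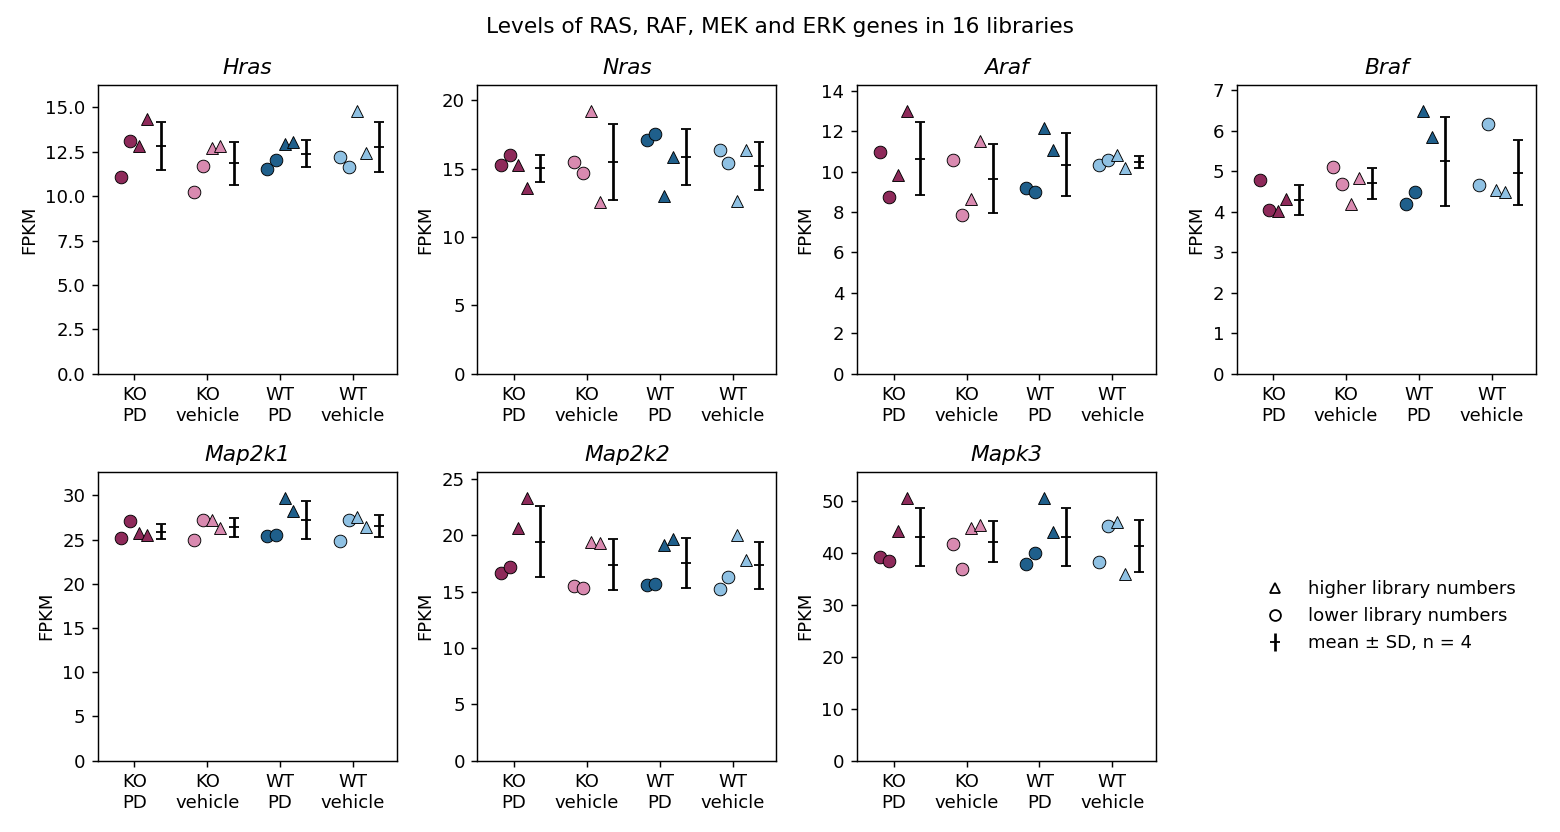
FPKM of the 7 genes in each library (y axis from 0), by group, with the mean ± SD of 4 libraries beside the points; triangles are the libraries with higher and circles those with lower library numbers. The groups overlap for every gene, and the Map2k2 triangles (17.8 to 23.3 FPKM) lie above the circles (15.2 to 17.1 FPKM).

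The RAS genes stood close to each other in every group. Hras, whose product is known as an oncogene and as a relay of growth factor signals, ranged from 11.1 to 14.3 FPKM in KO_PD, 10.2 to 12.8 FPKM in KO_vehicle, 11.5 to 13.1 FPKM in WT_PD and 11.6 to 14.8 FPKM in WT_vehicle. Nras was 15.3, 15.96, 15.2 and 13.6 FPKM in replicates 1 to 4 of KO_PD, and 15.5, 14.7, 19.2 and 12.6 FPKM in those of KO_vehicle. It was 17.1, 17.5, 13.0 and 15.8 FPKM in WT_PD, and 16.4, 15.4, 12.6 and 16.3 FPKM in WT_vehicle. The groups overlapped for both genes, and the widest values of Nras, the lowest and the highest, both fell in KO_vehicle. Hras made up 44.9 ± 4.41% of the summed FPKM of the pair (SD, n = 16), with single libraries from 39.8% to 53.9%, and exceeded Nras in 3 of 16 libraries.

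Among the RAF genes Araf exceeded Braf throughout. Araf was 10.96, 8.76, 9.86 and 13.0 FPKM in KO_PD, and 10.6, 7.85, 8.62 and 11.5 FPKM in KO_vehicle. It was 9.18, 8.97, 12.2 and 11.1 FPKM in WT_PD, and 10.3, 10.6, 10.8 and 10.2 FPKM in WT_vehicle, where the 4 libraries lay closest together. Braf, the kinase with the highest basal activity of its family, was 4.80, 4.04, 4.02 and 4.31 FPKM in KO_PD, and 5.09, 4.67, 4.20 and 4.83 FPKM in KO_vehicle. It was 4.18, 4.49, 6.48 and 5.84 FPKM in WT_PD, and 4.67, 6.15, 4.54 and 4.48 FPKM in WT_vehicle. The values of Braf at 5.84 FPKM and above all came from wild type libraries, and the other 5 wild type values lay within the range of the knockout. Araf held 68.1 ± 3.11% of the summed FPKM of the pair (SD, n = 16).

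Of the MEK genes, whose products PD0325901 inhibits, Map2k1 varied least of all members and Map2k2 varied by replicate number. Map2k1 was 25.1, 27.1, 25.8 and 25.5 FPKM in KO_PD, and 24.9, 27.2, 27.2 and 26.3 FPKM in KO_vehicle. It was 25.4, 25.5, 29.7 and 28.2 FPKM in WT_PD, and 24.8, 27.3, 27.6 and 26.4 FPKM in WT_vehicle. From lowest to highest library Map2k1 spanned 1.20-fold, against a median span of 1.76-fold over all tested genes, and only 1.90% of the genes tested had a smaller SD of log2 level. Map2k2 was 16.6, 17.1, 20.7 and 23.3 FPKM in KO_PD, and 15.5, 15.3, 19.4 and 19.3 FPKM in KO_vehicle. It was 15.6, 15.7, 19.2 and 19.7 FPKM in WT_PD, and 15.2, 16.3, 20.01 and 17.8 FPKM in WT_vehicle, so that in all 4 groups replicates 3 and 4 lay above replicates 1 and 2. Map2k1 made up 59.8 ± 2.97% of the summed FPKM of the pair (SD, n = 16). Mapk3 ranged from 38.4 to 50.6 FPKM in KO_PD, 36.8 to 45.5 FPKM in KO_vehicle, 37.8 to 50.6 FPKM in WT_PD and 35.95 to 45.9 FPKM in WT_vehicle, without a step between groups.

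**Figure D2:**
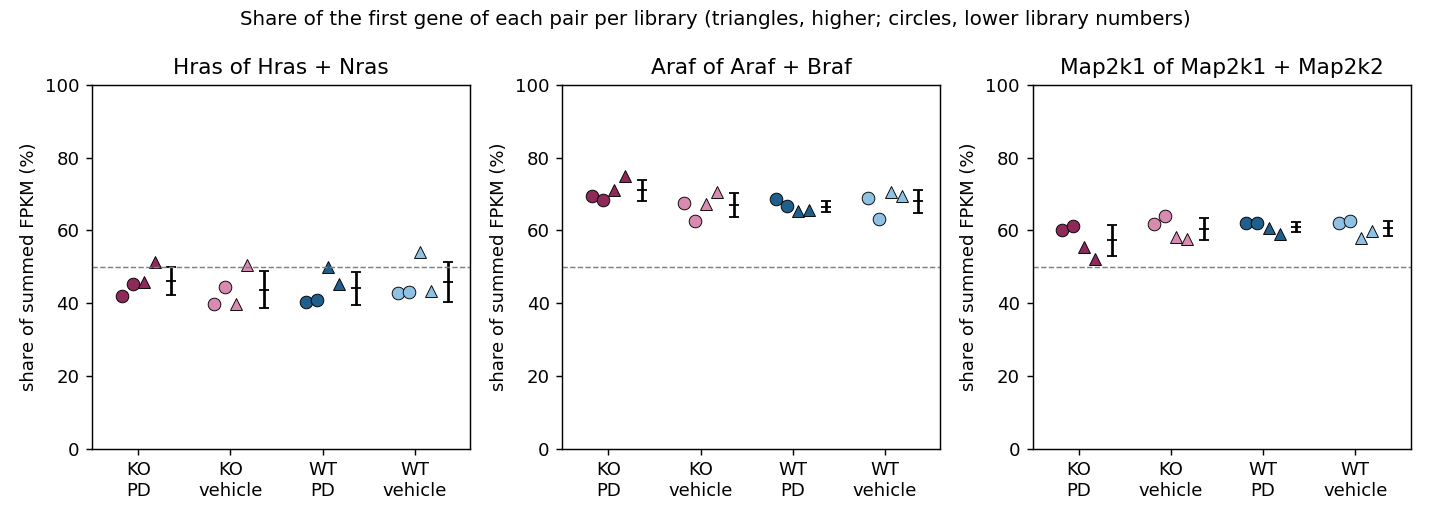
Share of the first gene in the summed FPKM of each pair (percent, y axis from 0 to 100), 1 point per library, with the mean ± SD of each group of 4; the dashed line marks equal levels. Araf and Map2k1 lie above the line in all 16 libraries, and Hras lies above it in 3.

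No member passed the threshold for loss of Spry4. Under vehicle, knockout against wild type, limma's log2 differences of log2(FPKM + 0.5) ran from -0.13 for Araf to 0.03 for Mapk3, with SEs of 0.06 to 0.14. The 95% interval of Map2k1 was -0.14 to 0.13, a ratio between 0.907 and 1.09, and the intervals of all 7 lay within -0.42 and 0.29. Under inhibitor the differences ran from -0.25 for Braf to 0.14 for Map2k2. Braf averaged 4.29 ± 0.363 FPKM in KO_PD and 5.25 ± 1.09 FPKM in WT_PD (SD, n = 4 each), a difference of -0.25 (SE 0.13, 95% interval -0.53 to 0.03). Its limma p was 0.0808 before and 0.988 after adjustment over all genes. Averaged over both treatments, the differences ran from -0.15 for Braf (95% interval -0.35 to 0.04) to 0.07 for Map2k2 (-0.12 to 0.27).

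No member passed the threshold for the inhibitor either, in cells taken 10 days after busulfan. In wild type, with inhibitor against vehicle, limma's log2 differences ran from -0.04 for Hras to 0.06 for Braf, and the 7 intervals lay within -0.32 and 0.34. In the knockout they ran from -0.12 for Braf to 0.15 for Map2k2, which averaged 19.4 ± 3.15 FPKM in KO_PD and 17.4 ± 2.29 FPKM in KO_vehicle (SD, n = 4 each). The 7 intervals in the knockout lay within -0.40 and 0.43, and that of Map2k2 (-0.13 to 0.43) reached 1.35-fold. Averaged over genotypes, Map2k1 differed by 0.00 (95% interval -0.09 to 0.10) and Map2k2 by 0.08 (-0.11 to 0.28), so that a change of the MEK genes beyond 1.21-fold lay outside both intervals. The interaction, the inhibitor's difference in the knockout minus that in wild type, ran from -0.18 for Braf to 0.16 for Araf, with intervals within -0.58 and 0.57.

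By limma, 0 of 7 members had an adjusted p under 0.05 in each of the 7 comparisons, and 0 of 7 had an unadjusted p under 0.05 in any. Across all 12907 genes the share called was 0% in each, and unadjusted p under 0.05 was found for 251 genes (knockout against wild type under vehicle), 605 (the same under inhibitor), 115 (inhibitor in wild type), 382 (inhibitor in the knockout), 561 (genotype averaged), 238 (inhibitor averaged) and 1.71% of all genes (interaction). No member separated the libraries of 2 groups without overlap, where 1.46%, 2.28%, 0.659% and 1.70% of all genes did so in the first 4 of these comparisons. The 4 groups accounted for 2.61% (Mapk3) to 24.3% (Braf) of a member's variance, beside a median of 12.7% over all tested genes. The median log2 difference of the 7 members was -0.01 for knockout against wild type with vehicle and 0.00 with inhibitor, beside -0.01 and -0.01 over all genes, and 0.03 for the inhibitor in wild type and 0.03 in the knockout, beside 0.01 and 0.00. The comparisons share groups, so they are not independent of each other.

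**Figure D3:**
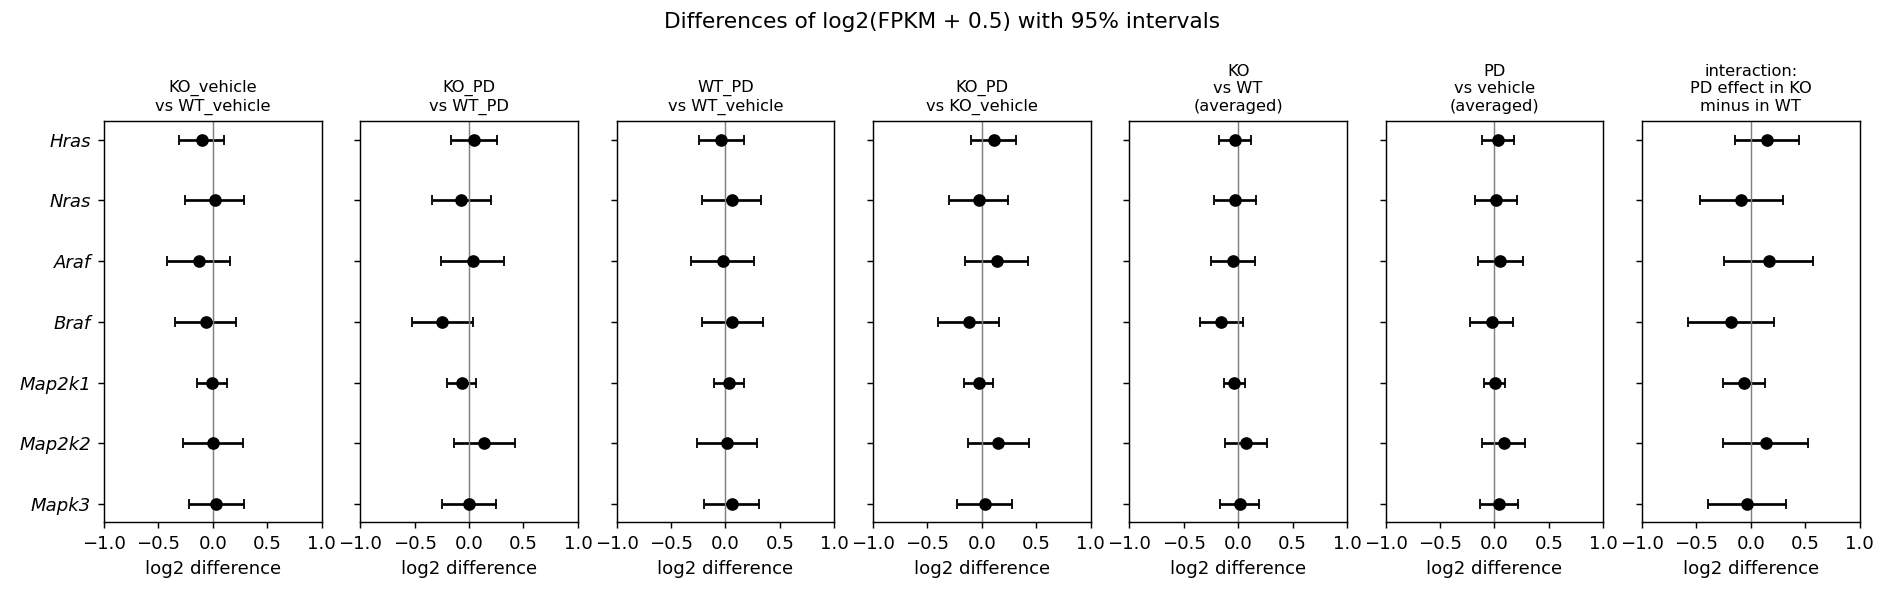
Difference of log2(FPKM + 0.5) for each gene in the 7 comparisons (points), with 95% limma intervals (bars); positive values are higher in the group named first, and all axes run from -1 to 1. Every interval includes 0, and Map2k1 has the narrowest.

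The balance within the pairs was compared in 12 exact two-sided permutation tests of 4 against 4 libraries, whose smallest possible p is 0.0286, and none passed the threshold. A single test at that smallest p would have an adjusted p of 0.343, and 7 of the 12 would have to reach it to pass 0.05, so the design could hardly have given a call and the values below are descriptions. The log2 ratio of Araf to Braf averaged 1.30 ± 0.21 in KO_PD and 0.99 ± 0.10 in WT_PD (SD, n = 4 each), a difference of 0.31 (exact permutation p = 0.0571, adjusted 0.514). Against KO_vehicle, at 1.02 ± 0.21, the KO_PD ratio differed by 0.28 (exact permutation p = 0.0857, adjusted 0.514). The difference between KO_PD and WT_PD was 0.53 among the libraries with higher numbers and 0.09 among those with lower numbers, with 2 libraries of a group in each. For Map2k1 to Map2k2 the log2 ratio was 0.42 ± 0.25 in KO_PD and 0.64 ± 0.09 in WT_PD, a difference of -0.21 (exact permutation p = 0.2, adjusted 0.72). The ratio of Hras to Nras differed by at most 0.14 in size between groups (exact permutation p of at least 0.429).

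Map2k2 split the libraries by their number. A number opens each library's name, the labels do not say what it stands for, and the higher 8 numbers hold replicates 3 and 4 and the lower 8 replicates 1 and 2 of all 4 groups. Map2k2 averaged 19.9 ± 1.60 FPKM in the higher and 15.9 ± 0.696 FPKM in the lower numbers (SD, n = 8 each), without overlap, where 0.852% of all tested genes were likewise higher without overlap. With the number set as a term beside the groups, chosen after the data were seen, limma gave Map2k2 a log2 difference of 0.31 (SE 0.04, adjusted p = 0.00492) and Hras 0.17 (SE 0.05, adjusted p = 0.0447), 2 of 7 members, both higher, where 11.8% of all genes were called, 7.40% higher and 4.39% lower. Hras averaged 13.2 ± 0.844 FPKM in the higher and 11.7 ± 0.851 FPKM in the lower numbers, with overlap, and lost its call when any of 12 single libraries was left out. Without each single library the difference of Map2k2 stayed between 0.29 and 0.33 (adjusted p up to 0.0179), while the share of all genes called ran from 2.41% without KO_vehicle 4 to 35.4% without KO_vehicle 3. The contractile level described next averaged 8.79 ± 0.96 in the higher and 7.71 ± 0.91 in the lower numbers (SD, n = 8 each) with wide overlap, 6.68 to 9.71 against 6.22 to 8.93, a difference that was not tested. With that level as a further term Map2k2 still differed by 0.29 (SE 0.04, adjusted p = 0.0151, 3.10% of all genes called).

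By r, Araf and Nras followed the transcripts of contractile cells most closely, and Map2k2 and Mapk3 less so. Braf passed the limma fit given here but not the test of r, and Hras and Map2k1 passed neither. These cells were followed by the mean log2(FPKM + 0.5) of Acta2, Myh11, Tagln, Des, Cnn1, Myl9 and Tpm2, which ran from 7.997 to 9.52 in KO_PD, 6.68 to 9.05 in KO_vehicle, 6.22 to 9.71 in WT_PD and 7.49 to 9.20 in WT_vehicle. Araf rose with it over the 16 libraries (Pearson r 0.822, permutation p = 0.00014, adjusted over 7 members 0.00098; Spearman rho 0.868, permutation p = 0.00011). Its r came to 0.808 when the 2 libraries farthest from the median level were dropped, 0.925 within the higher and 0.585 within the lower library numbers. Nras fell with it (r -0.79, permutation p = 0.00028, adjusted 0.00098; rho -0.75, permutation p = 0.00106), with r -0.69 without the 2 farthest, -0.84 within the higher and -0.74 within the lower numbers. In WT_PD 3, the library richest in contractile transcripts, Araf was at 12.2 and Nras at 13.0 FPKM, against 8.97 and 17.5 FPKM in WT_PD 2, the poorest. The part of these transcripts in the levels of Araf and Nras was not tested beyond the fits given here. In bulk RNA, fewer cells of a type and less RNA per cell cannot be told apart.

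The other members followed the contractile level less closely by r. The correlation was r 0.609 for Mapk3 (rho 0.650, permutation p = 0.0133 and 0.00796, adjusted p of r 0.0308) and r 0.588 for Map2k2 (rho 0.597, permutation p = 0.0176 and 0.0169, adjusted p of r 0.0308), with 0.821 and 0.743 without the 2 farthest libraries. Within the higher and lower numbers r was 0.370 and 0.559 for Mapk3 and 0.249 and 0.479 for Map2k2. For Braf (r 0.523, rho 0.462, permutation p = 0.0359 and 0.0744, adjusted p of r 0.0502), Map2k1 (r 0.408, rho 0.426, permutation p = 0.115 and 0.0995) and Hras (r 0.397, rho 0.538, permutation p = 0.129 and 0.0337) the adjusted p of r was above 0.05, while that of rho was 0.0472 for Hras. With the contractile level as a term beside the groups, added after the data were seen, limma called 5 of 7 members: Araf (0.14 per log2 unit, SE 0.03, adjusted p = 0.00121), Braf (0.12, SE 0.03, adjusted p = 0.0102), Mapk3 (0.10, SE 0.03, adjusted p = 0.0189), Map2k2 (0.10, SE 0.04, adjusted p = 0.0416) and, downward, Nras (-0.13, SE 0.03, adjusted p = 0.002). As 53.8% of all genes were called in that fit (32.0% upward and 21.8% downward, and 42.1% in all without WT_PD 3), this count is no result particular to the cascade. Reads recovered from FPKM summed to more than a library's divisor (see the processing) only at contractile levels of 9.05 and above. Any part of the divisor in these slopes and correlations was not tested. The call of Map2k2 was lost when any of 11 single libraries was left out, and those of Braf and Mapk3 without WT_PD 3. With the library-number term beside it 48.0% of all genes were called, and of the members Nras, Araf and Braf. With the contractile term, no member was called between genotypes or treatments, and Spry4 was the 1 gene of 12907 called for the averaged genotypes (11.9 FPKM in knockout and 21.8 FPKM in wild type, log2 difference -0.88, limma adjusted p = 0.0286).

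**Figure D4:**
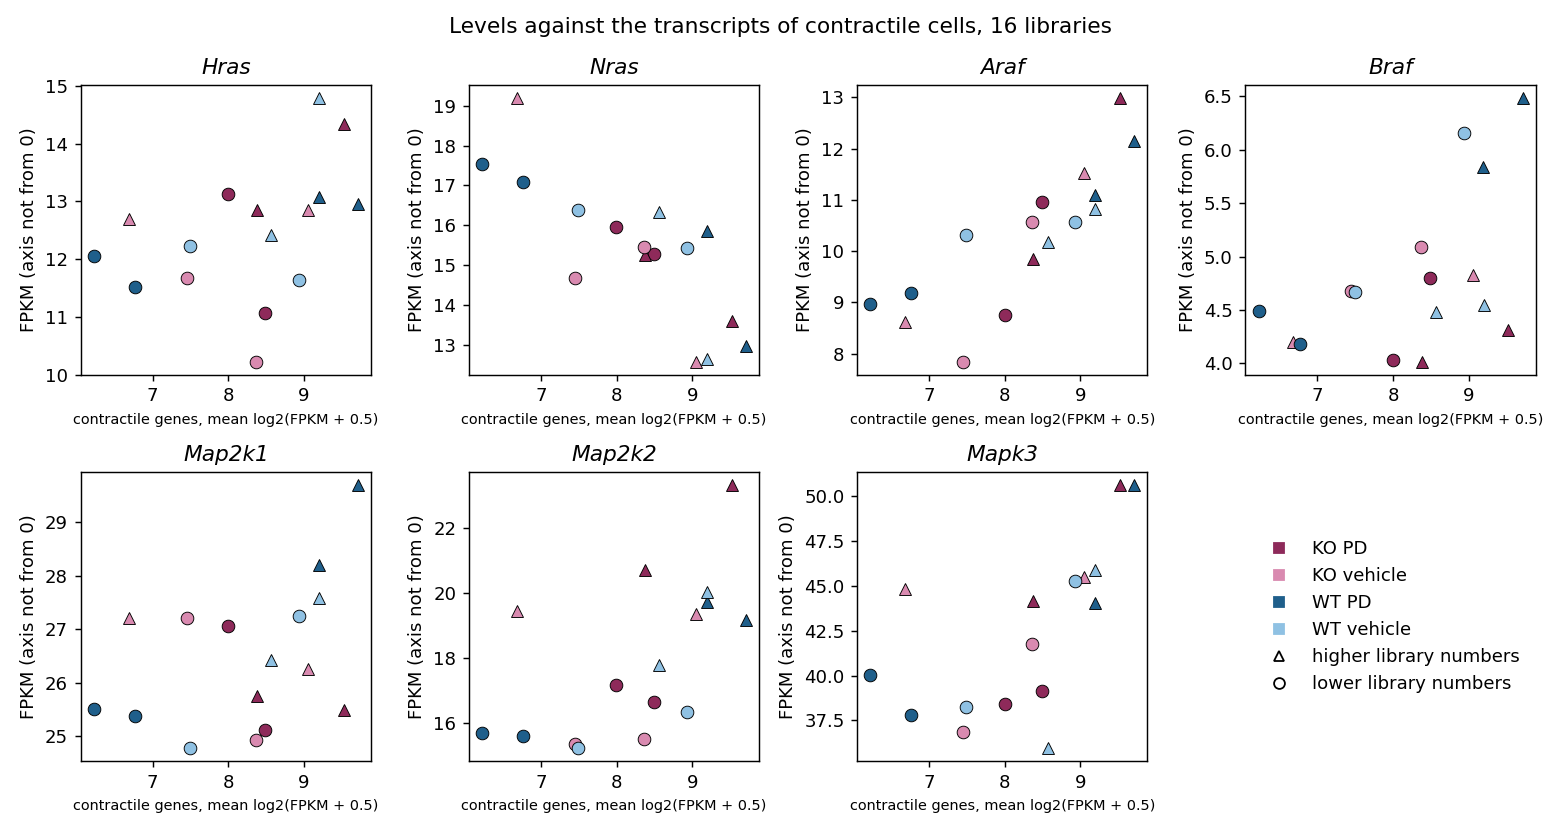
FPKM of each gene (y axes not from 0) against the mean log2(FPKM + 0.5) of 7 contractile genes (x axis) in 16 libraries, coloured by group; triangles are higher and circles lower library numbers. Araf rises and Nras falls along the x axis, and the Map2k2 triangles stand above its circles at any contractile level.

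Among the members themselves, 4 of 21 pairs correlated over the 16 libraries at an adjusted permutation p of r under 0.05, all with r of at least 0.632 in size. Among all pairs of tested genes 19.8% had an r of at least that size, so the count is no result particular to the cascade. The closest were Hras and Map2k2 (r 0.786, rho 0.776, r 0.822 without the 2 farthest libraries, 0.654 within the higher and 0.336 within the lower numbers) and Map2k2 and Mapk3 (r 0.744, rho 0.676, r 0.667 without the 2 farthest, 0.670 and 0.219 within the sets). Their permutation p of r was 0.00023 and 0.00128, adjusted over 21 pairs 0.00483 and 0.0134, and the adjusted p of rho was 0.0143 for Hras and Map2k2 and 0.0566 for Map2k2 and Mapk3. The other 2 pairs were Araf and Mapk3 (r 0.673, rho 0.644, adjusted permutation p = 0.033 for r and 0.0613 for rho, r 0.503 without the 2 farthest) and, in opposite directions, Nras and Araf (r -0.63, rho -0.62, adjusted permutation p = 0.0476 for r and 0.0668 for rho, r -0.54 without the 2 farthest). Within the higher and lower numbers r was 0.543 and 0.602 for Araf and Mapk3, and -0.79 and -0.06 for Nras and Araf, so that the relation of Nras and Araf did not hold within the lower numbers. The paralogs did not move together past the threshold: r was -0.41 for Hras and Nras, 0.465 for Araf and Braf and 0.328 for Map2k1 and Map2k2, with adjusted permutation p of r from 0.166 to 0.285. Without the 2 farthest libraries r was -0.33, 0.739 and 0.227 for these pairs. Araf and Braf had rho 0.547 (adjusted permutation p = 0.108) and r 0.473 within the higher and 0.554 within the lower numbers. Within those sets r was -0.55 and 0.325 for Hras and Nras, and -0.43 and 0.407 for Map2k1 and Map2k2.

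The genes whose levels over the 16 libraries were most like a member's were found by the highest Pearson r of log2(FPKM + 0.5). For Nras they were Mdm2 (r 0.951), whose product restrains p53, Rad51c (0.933), a recombination repair factor, and Ercc6 (0.932), a factor of transcription-coupled repair. Braf was closest to Picalm (0.972), a clathrin assembly factor, and Mosmo (0.952) and Rbm26 (0.936), and Araf to Catip (0.960), Ppox (0.955), an enzyme of heme synthesis, and Calcoco1 (0.952). Map2k2 was closest to Bag6 (0.957), Uqcr11 (0.956) and Mrpl4 (0.955), and Hras to the ribosomal protein gene Rps12 (0.923), Cxxc1 (0.920) and Chchd10 (0.901). Map2k1 was closest to Smu1 (0.924), Ghitm (0.917) and Spryd7 (0.895), and Mapk3 to Mbd3 (0.913), Hoxd3os1 (0.911) and Rabl6 (0.901). These likenesses are the top of a search over the tested genes, leaving out predicted gene symbols, and are given as a description.

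The wider pathway gave the same count as the core. Of 104 genes listed with earlier results of these data known, covering RAS relatives, adaptors and exchange factors, GTPase activators, scaffolds, ERK effectors, negative feedback and the other MAP kinase modules, 101 were in the table and 98 were tested, and limma called 0 of 98 in each of the 7 comparisons. Their median log2 difference for the knockout over wild type was -0.01 with vehicle and -0.02 with inhibitor, beside -0.01 and -0.01 over all genes, and 0.01 for inhibitor in wild type and 0.02 in the knockout, beside 0.01 and 0.00. An unadjusted p under 0.05 was found for 13 of 98 in knockout against wild type under inhibitor (13.3%, beside 4.69% of all genes) and 11 of 98 for the averaged genotypes (11.2%, beside 4.35%). It was found for 3 of 98 under vehicle (3.06%, beside 1.94%), 1 of 98 for inhibitor in wild type (1.02%, beside 0.891%), 2 of 98 for inhibitor in the knockout (2.04%, beside 2.96%), 0 of 98 for the averaged treatments (beside 1.84%) and 2 of 98 for the interaction (2.04%, beside 1.71%). The 98 include Spry4, the gene knocked out, which is among those counted under vehicle and for the averaged genotypes. The most abundant of these genes was Hsp90ab1, a chaperone whose clients include RAF kinases, at 536 ± 23.2 FPKM (SD, n = 16). The gene with the smallest p under vehicle was Spry4 (log2 difference -1.01, SE 0.24), and under inhibitor Rap1b, a RAS-related GTPase, at 55.2 ± 6.62 FPKM in KO_PD and 71.3 ± 5.79 FPKM in WT_PD (-0.37, SE 0.11, limma adjusted p = 0.988). For inhibitor against vehicle it was Rasa3, a GTPase activator, in wild type, at 18.1 ± 4.29 FPKM in WT_PD and 12.3 ± 5.39 FPKM in WT_vehicle (0.59, SE 0.23, limma adjusted p = 0.9999), and Rasa1, another, in the knockout, at 14.9 ± 3.48 FPKM in KO_PD and 19.5 ± 2.33 FPKM in KO_vehicle (-0.39, SE 0.15, limma adjusted p = 0.968). Rasa3 had the smallest p for the interaction (-0.80, SE 0.33), Spry4 for the averaged genotypes (-0.88, SE 0.17) and the phosphatase gene Dusp2 for the averaged treatments (0.25, SE 0.12). None of these differences passed the threshold.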

How the data were processed

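Transcripts of sorted undifferentiated spermatogonia were measured in 16 polyA RNA libraries made with a stranded kit, 4 per group, per the labels' protocols. The authors deposited FPKM values per gene and library, per the labels. FastQC, STAR 2.7.10a, edgeR 4.0.14 and the builds mm10 and GRCm39 are named in the submitters' processing notes without roles. No source used here names the counter, the gene lengths or any scaling. Libraries were grouped by their titles, and columns were matched by the names in the labels.

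FPKM multiplied by the exon length of GENCODE M21 (GRCm38) and by a divisor searched for each library gave whole reads within 0.1 for 92.9% to 94.2% of values under 100 reads, and within 0.192 for all 112 member values. The smallest divisor that did so was taken, from 23360626 to 36615162 reads, and it may hold a scaling factor besides depth. Reads summed over matched genes came to 36307965 in WT_PD 3, above its divisor of 32258820. In WT_PD 2 they came to 24995868, below its divisor of 28814568. Summed reads were also above the divisor in KO_PD 4, KO_vehicle 4 (28958840 against 28730004), WT_PD 4 (37599641 against 36469477) and WT_vehicle 3, and below it in every other library. With these exon lengths the divisors of WT_PD 3 and these 4 libraries were thus no plain count of reads, and what else they held was not tested. Their contractile levels, from 9.05 in KO_vehicle 4 to 9.71 in WT_PD 3, were the highest of all libraries. Multiples of the divisor taken also give whole numbers, in which case the true read counts would be higher.

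Genes with at least 1 FPKM in at least 4 libraries were tested on log2(FPKM + 0.5). The tool was limma 3.58.1 (R 4.3.3), with 1 mean per group, a variance trend and Benjamini-Hochberg adjustment over 12907 genes (threshold 0.05, two-sided). This scale understates the change of low genes. Pair ratios and level orders used exact permutation tests and correlations 100000 permutations (Python 3.11.15, NumPy 2.4.6, SciPy 1.17.1). The fit was tested on simulated data. Alternatives were other pseudocounts, no filter, median-ratio scaling, a replicate block, a library-number term, a contractile covariate and leaving out each library. Named beside the members were the 3 genes with the highest r to each (without predicted genes) and, of the pathway lists, the most abundant gene and the gene with the smallest p in each comparison. Marker genes, Spry4 and single libraries named elsewhere were picked after their values were seen. The members and lists were chosen with earlier results of these data known.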

Additional observations from a re-analysis of the deposited data

Results flagged for a closer look

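Replicate 2 of WT_vehicle had Braf at 6.15 FPKM, while the other 3 libraries of its group lay between 4.48 and 4.67 FPKM, a gap of 0.891 of the group's range. Replicate 3 of WT_vehicle had a log2 ratio of Hras to Nras of 0.23, while the other 3 lay between -0.42 and -0.39, a gap of 0.957 of the range. Both exceed Dixon's 95% critical value for 4 samples. Among the 28 gene groups and 12 ratio groups examined, chance flags about 1 in 20. Without either library the members stayed uncalled in the comparisons of genotype and inhibitor.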

How the results depend on the processing

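In each of the 7 comparisons 0 of 7 members were called under every alternative run (another pseudocount, no filter on low values, median-ratio scaling, the replicate block, the library-number term, the contractile covariate and leaving out each library). Uncalled differences near 0 changed sign under some of these, and the cause was not tested. Under median-ratio scaling Map2k2 in KO_vehicle against WT_vehicle came to -0.0069 and Mapk3 in KO_PD against WT_PD to 0.013 (log2). With the contractile covariate the log2 differences were -0.069 for Nras, 0.015 for Braf and 0.018 for Map2k1 in KO_vehicle against WT_vehicle. They were 0.012 for Nras and -0.055 for Araf in KO_PD against WT_PD, -0.016 for Nras and 0.056 for Araf in WT_PD against WT_vehicle, 0.064 for Nras and -0.046 for Mapk3 in KO_PD against KO_vehicle, and 0.081 for Nras and -0.021 for Araf in the interaction. That covariate gave 1 called gene, Spry4, for the averaged genotypes.

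Leaving out 1 library at a time turned the sign of these differences, none of them called, and the range is given for each. In KO_vehicle against WT_vehicle it ran over -0.089 to 0.11 for Nras, -0.10 to 0.035 for Braf, -0.037 to 0.021 for Map2k1, -0.055 to 0.074 for Map2k2 and -0.031 to 0.095 for Mapk3. In KO_PD against WT_PD it ran over -0.0079 to 0.11 for Hras, -0.061 to 0.12 for Araf and -0.080 to 0.078 for Mapk3. In WT_PD against WT_vehicle it ran over -0.078 to 0.033 for Hras, -0.025 to 0.15 for Nras, -0.10 to 0.035 for Araf, -0.036 to 0.16 for Braf, -0.0083 to 0.066 for Map2k1, -0.043 to 0.085 for Map2k2 and -0.020 to 0.12 for Mapk3. In KO_PD against KO_vehicle it ran over -0.12 to 0.078 for Nras and -0.054 to 0.077 for Mapk3. For the averaged genotypes it ran over -0.055 to 0.0064 for Hras, -0.079 to 0.019 for Nras and -0.024 to 0.055 for Mapk3. For the averaged treatments it ran over -0.031 to 0.068 for Nras, -0.077 to 0.022 for Braf and -0.019 to 0.018 for Map2k1. For the interaction it ran over -0.18 to 0.019 for Nras and -0.11 to 0.046 for Mapk3. The pair ratios that changed sign ran from -0.26 to 0.035 (Hras/Nras), -0.17 to 0.026 (Araf/Braf) and -0.082 to 0.046 (Map2k1/Map2k2) in KO_vehicle against WT_vehicle, and from -0.21 to 0.060 (Hras/Nras) and -0.033 to 0.060 (Map2k1/Map2k2) in WT_PD against WT_vehicle. Within the higher and lower library numbers the Araf/Braf difference was 0.53 and 0.089 in KO_PD against WT_PD, and -0.30 and 0.10 in WT_PD against WT_vehicle.

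The correlation with contractile transcripts changed its call in 4 of 16 omissions each for Braf (r 0.410 to 0.622), Map2k2 (0.521 to 0.731) and Mapk3 (0.535 to 0.734), and r of Braf was 0.525 with a pseudocount of 1, where it passed. By library-number set, Braf ran over -0.039 to 0.070. With the contractile term Hras by number set was 0.19 and no longer called, Nras was 0.031 and Braf -0.16, and with the number term the contractile slope was -0.013 for Hras and, no longer called, 0.016 for Map2k2 and 0.070 for Mapk3. Without KO_vehicle 3, Nras by number set was called (-0.19, limma adjusted p = 0.0369), as was Mapk3 without WT_vehicle 2 or 4. The order of the 7 levels kept its calls in all omissions.

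The labels give no pairing, and same-numbered replicates did not all deviate together: the correlation of their deviations ran from -0.53 to 0.73 over the 4 comparisons. A sample correlated best with its own number in 0, 0, 2 and, for KO_PD against KO_vehicle, 3 of 4 pairs, a hint from the data and not the design. The replicate block called 0 genes and 0 members in each comparison. With 4 libraries per group, the intervals of single comparisons are the limit on what could be seen, since counting error was smaller than the spread between libraries.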
